A study of Mus musculus with 6 samples.

Results

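The genes described here are 7 linked to red blood cells, namely Hba-a1, Hba-a2, Hbb-bs, Hbb-bt, Alas2, Slc4a1 and Bpgm. They were taken by symbol from the 21959 genes of the deposited table, and each of the 7 was present once. Hemoglobin is a tetramer of alpha chains, encoded by Hba-a1 and Hba-a2, and beta chains, encoded by Hbb-bs and Hbb-bt, each holding a heme group that binds oxygen. Alas2 is the erythroid form of the enzyme that starts heme synthesis, Slc4a1 is band 3, the anion exchanger of the red cell membrane, and Bpgm makes 2,3-bisphosphoglycerate, which lowers the oxygen affinity of hemoglobin. Mature mammalian red cells have no nucleus. The RNA in blood that encodes these proteins is carried mainly by reticulocytes, the youngest circulating red cells. In a solid tissue such as skin, globin transcripts are therefore commonly read as a measure of the blood left in the sample.

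RNA-seq was performed on dorsal skin of C57BL/6 mice that had been shaved in telogen, the resting phase of the hair cycle, at 7 weeks of age. Vehicle, a mixture of 30% dipropylene glycol and 70% distilled water, or 3% rebamipide, a drug used to protect the gastric mucosa, was put on the shaved skin daily for 7 days. The 2 groups held 3 mice each, 1 library per mouse, and the paper's methods describe all mice as male. The paper's methods give cervical dislocation in the histology section and isoflurane anesthesia at the endpoint of the longer experiments. They give no killing method for the RNA-seq mice in particular and do not mention perfusion. The blood in the vessels was not stated to have been washed out. Libraries were made from poly-A RNA, and their total counts were 38676018 to 39915276 in the vehicle group and 32709801 to 34706852 in the rebamipide group. The comparison asks whether the red cell transcripts differed between rebamipide-treated and vehicle-treated skin, and how evenly they were spread over the libraries of each group.

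Several features of the libraries moved with the groups and touch every value below. Mitochondrial genome transcripts made up 2.59% to 5.36% of each vehicle library and 13.3% to 22.0% of each rebamipide library, and counts were therefore normalized with edgeR's TMM factors. Normalized CPM below are CPM computed with the TMM-adjusted library size. The median log2 fold change of all 14875 genes tested was -0.18 after TMM and -0.78 with total counts alone. The tissue label was checked against basal keratinocyte genes. Krt14, a keratin of the basal epidermis, had 26099, 64371 and 59493 counts in the vehicle libraries, 10954 and 6102 in rebamipide libraries 1 and 2, and 0 in rebamipide library 3. Krt5, its partner keratin, had 4 counts in that library against 5368 or more in each of the others, so rebamipide library 3 went against its label of skin in these markers. The calls of the 7 genes and of the gene lists are therefore also given without it.

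The promoters of the red cell genes are shown because 5 of the 7 genes were higher in every rebamipide library and 2 were not. The sequences are the 250 bases before the transcription start in RefSeq's table for GRCm38.p6, 5′ to 3′ on the strand of the gene. Capitals mark any of 4 short motifs on either strand: a GATA motif (NGATAN with A or T in front and A or G at the end), the sequence bound by GATA1 in erythroid cells, CACCC, the core of the box bound by KLF1 and related factors, TATAAA, the TATA box, and CCAAT. Of the 7 genes, 6 had an entry, and Slc4a1 had none. The positions on GRCm38.p6 were chr11:32283422-32283671 (plus strand) for Hba-a1, chr7:103827929-103828178 (minus strand) for Hbb-bs, chr7:103813924-103814173 (minus strand) for Hbb-bt, chrX:150547167-150547416 (plus strand) for Alas2 and chr6:34476106-34476355 (plus strand) for Bpgm.
Hba-a1: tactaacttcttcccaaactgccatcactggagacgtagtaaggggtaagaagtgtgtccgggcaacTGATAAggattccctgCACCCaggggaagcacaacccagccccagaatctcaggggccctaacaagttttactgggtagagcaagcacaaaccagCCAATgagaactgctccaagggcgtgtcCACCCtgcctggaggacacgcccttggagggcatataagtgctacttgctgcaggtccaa
Hbb-bs: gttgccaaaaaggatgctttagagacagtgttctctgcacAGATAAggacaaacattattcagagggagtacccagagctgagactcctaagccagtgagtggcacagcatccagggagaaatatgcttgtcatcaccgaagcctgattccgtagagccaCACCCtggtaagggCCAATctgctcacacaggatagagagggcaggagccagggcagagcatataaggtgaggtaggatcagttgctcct
Hbb-bt: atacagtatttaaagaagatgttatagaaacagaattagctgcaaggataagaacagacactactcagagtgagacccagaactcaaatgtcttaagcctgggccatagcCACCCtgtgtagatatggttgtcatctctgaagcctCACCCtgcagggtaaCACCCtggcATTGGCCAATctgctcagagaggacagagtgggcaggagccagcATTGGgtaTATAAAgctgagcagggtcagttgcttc
Alas2: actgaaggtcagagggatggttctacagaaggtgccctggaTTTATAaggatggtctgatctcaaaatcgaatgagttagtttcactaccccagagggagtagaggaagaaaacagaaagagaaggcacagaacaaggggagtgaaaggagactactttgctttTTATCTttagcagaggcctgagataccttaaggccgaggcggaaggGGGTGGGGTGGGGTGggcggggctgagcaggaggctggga
Bpgm: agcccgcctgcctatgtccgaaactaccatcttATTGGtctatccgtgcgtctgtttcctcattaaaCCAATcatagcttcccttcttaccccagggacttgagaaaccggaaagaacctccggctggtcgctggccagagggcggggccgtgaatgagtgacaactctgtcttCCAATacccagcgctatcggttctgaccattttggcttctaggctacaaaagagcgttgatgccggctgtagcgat
Hba-a1, Hba-a2, Hbb-bs and Alas2 each held 1 GATA motif, and Hbb-bt and Bpgm held none, against 26.5% of the 32851 promoters cut to the same length. CACCC was present in all 4 globin promoters and in that of Alas2, in the last as 3 adjacent copies read on the opposite strand, and was absent from that of Bpgm. This short motif was found in 52.0% of all promoters. CCAAT was present in the 4 globin promoters and in that of Bpgm, which held 3 copies, and in 33.8% of all promoters. TATAAA was present in the promoters of Hbb-bt and Alas2 and in 12.4% of all promoters. In the Alas2 promoter it lay on the opposite strand 209 bases before the start. A match of letters is a description of the sequence and not a binding site.

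The sequences of the gene copies bear on how far their reads can be told apart. The promoters of Hba-a1 and Hba-a2 were identical at all 247 bases they shared once shifted against each other by the difference in their annotated starts, so only that of Hba-a1 is shown. Their coding sequences differed at 1 of 429 bases, and those of Hbb-bs and Hbb-bt at 1 of 444 bases. Of all stretches of 100 bases in the transcripts of the reference annotation, 56.5% of those in Hba-a1 occurred unchanged in Hba-a2 and 74.5% of those in Hba-a2 occurred in Hba-a1. For Hbb-bs and Hbb-bt the shares were 62.6% and 54.8%. How reads that match both copies were counted is not given in the sources used here, so the split within each pair is uncertain, and with each pair summed the log2 fold changes were 2.42 for the alpha genes and 2.51 for the beta genes.

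For each of the 4 adult globin genes, the lowest rebamipide library lay above the highest vehicle library in normalized CPM. Hba-a1 (ENSMUSG00000069919, chromosome 11, 32233511 to 32234465, plus strand of GRCm39) had 764, 1702 and 3241 counts in the vehicle libraries and 3515, 6594 and 6973 in the rebamipide libraries. Its level went from 39.7 ± 27.4 to 213 ± 84.3 normalized CPM (mean ± SD, n = 3 mice per group). The groups did not overlap, and the level already differed 4.53-fold between the lowest and the highest vehicle library. On the log2 scale the rise was 2.42 ± 0.62 (fold change ± standard error, adjusted p = 0.0419, edgeR). In bulk tissue a difference in the number of cells of a type and one in the RNA per cell cannot be told apart. Hba-a2 (ENSMUSG00000069917, chromosome 11, 32246489 to 32247298, plus strand) was read far less, with 8, 19 and 92 counts in vehicle skin and 115, 91 and 106 in rebamipide skin. Its log2 fold change of 2.18 (standard error 0.91) did not pass the adjusted threshold in edgeR (adjusted p = 0.128). Of the alpha globin counts, 1.04% to 3.17% were assigned to Hba-a2.

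Hbb-bs (ENSMUSG00000052305, chromosome 7, 103475741 to 103477303, minus strand), the adult beta gene with the higher level, had 1120, 2788 and 5013 counts in the vehicle libraries and 5776, 10684 and 11781 in the rebamipide libraries. It rose from 62.0 ± 42.6 to 352 ± 141 normalized CPM, which is 2.50 ± 0.64 on the log2 scale (adjusted p = 0.0417, edgeR). Vehicle library 1 was the lowest and rebamipide library 3 the highest, and the step from the highest vehicle library to the lowest rebamipide library was 1.77-fold, smaller than the 4.78-fold span within the vehicle group. Hbb-bt (ENSMUSG00000073940, chromosome 7, 103461731 to 103463203, minus strand) had 111, 342 and 624 counts against 686, 1334 and 1438. The difference of 2.52 ± 0.70 on the log2 scale had an adjusted p of 0.051 in edgeR, just beyond the threshold. DESeq2 placed Hbb-bt within it (adjusted p = 0.00277), and the adjusted p had a range of 0.00277 to 0.0665 over the alternatives that kept all libraries.

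Alas2 (ENSMUSG00000025270, chromosome X, 149330371 to 149353634, plus strand) followed the globins closely. It had 113, 228 and 378 counts in the vehicle libraries and 399, 840 and 889 in the rebamipide libraries. The groups did not overlap in normalized CPM, with means of 4.99 ± 2.93 and 26.6 ± 11.7. This was a rise of 2.41 ± 0.59 on the log2 scale (adjusted p = 0.0377, edgeR). The table places Apex2, a DNA repair gene, over the same interval on the minus strand, and the strand setting of the counting is not given in the sources used here, so reads of the 2 genes cannot be told apart where they overlap. Apex2 had 491, 411 and 325 counts in vehicle skin and 326, 453 and 384 in rebamipide skin, with a log2 fold change of 0.78 (adjusted p = 0.102, edgeR).

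**Figure D1:**
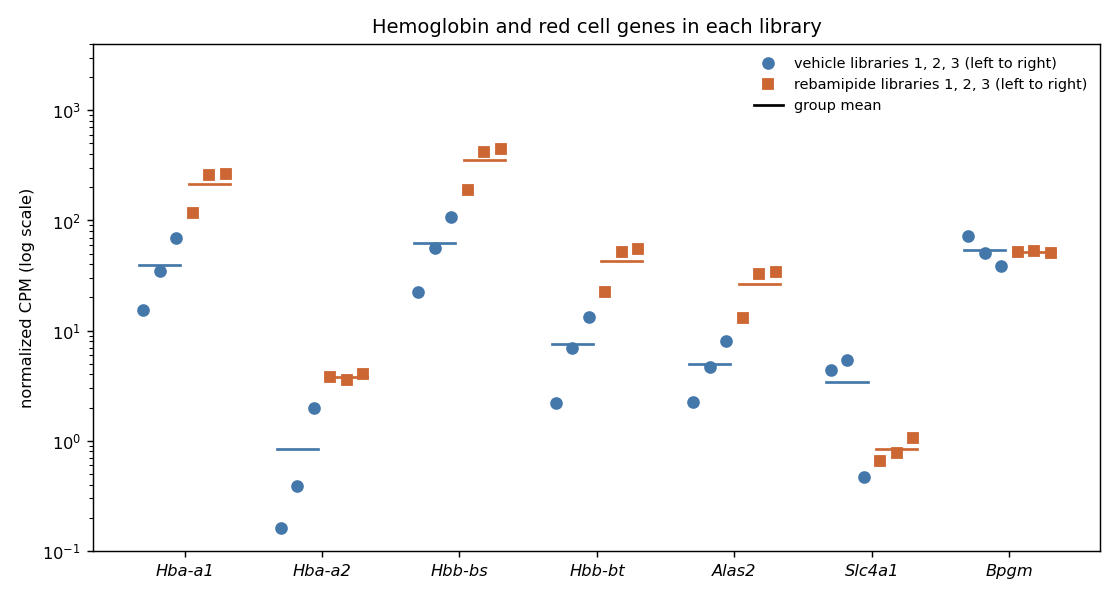
Normalized CPM (log axis) of the 7 genes in each library, with vehicle libraries 1 to 3 as circles and rebamipide libraries 1 to 3 as squares from left to right and the group mean as a bar. The 4 globin genes and Alas2 have no overlap between the groups and also differ widely among the vehicle libraries, Slc4a1 is high in vehicle libraries 1 and 2 only, and Bpgm lies between 38.5 and 72.4 normalized CPM in all 6 libraries.

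Slc4a1 did not follow the globins. Slc4a1 (ENSMUSG00000006574, chromosome 11, 102239650 to 102257029, minus strand) had 221 and 268 counts in vehicle libraries 1 and 2, 22 in vehicle library 3, and 20, 20 and 28 in the rebamipide libraries. Vehicle library 3 lay with the rebamipide libraries, so the groups overlapped, and the log2 fold change of -2.04 (standard error 0.87) did not pass (adjusted p = 0.134, edgeR). Without vehicle library 3 the log2 fold change was -2.56 and passed (adjusted p = 0.0248, edgeR). The 2 libraries with most Slc4a1 were those with least globin. In the 4 libraries with 20 to 28 counts of Slc4a1 the level was 0.47 to 1.07 normalized CPM, and within those 4 libraries it was lowest in vehicle library 3 and highest in rebamipide library 3.

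Bpgm showed no difference past the spread between libraries. Bpgm (ENSMUSG00000038871, chromosome 6, 34453142 to 34482548, plus strand) had 3618, 2473 and 1799 counts in the vehicle libraries and 1560, 1353 and 1322 in the rebamipide libraries. These were 72.4, 50.2 and 38.5 normalized CPM in vehicle skin and 51.3, 52.7 and 50.4 in rebamipide skin. The log2 fold change of -0.06 ± 0.26 (adjusted p = 0.876, edgeR) lay 0.12 above the median of all genes. Bpgm was highest in vehicle library 1, the library with the fewest globin counts. Its 3618 counts there exceeded the 2003 counts of the 4 globin genes together, so its level is not read here as a measure of blood.

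Of the 7 genes, edgeR called 3 higher at an adjusted p under 0.05 (Hba-a1, Hbb-bs and Alas2), against 14.1% of the 14875 genes tested, and 0 lower, against 6.51% of all genes. At an unadjusted p under 0.05 edgeR had 4 of the 7 higher and 0 lower, against 20.9% and 18.8% of all genes. DESeq2 and limma-voom each called 5 higher and 0 lower, against 16.2% higher and 15.5% lower over all genes by DESeq2 and 14.4% and 6.94% by limma-voom. All 7 passed the expression filter. Of the 7, 5 were higher in every rebamipide library and 0 were lower in every one, against 24.5% and 24.0% of all genes tested. For single genes a two-sided exact permutation test over 3 against 3 libraries cannot go below p = 0.1, which was the value for the 4 globin genes and Alas2, and it gave 0.4 for Slc4a1 and 1 for Bpgm. Relative to the median of all genes, the log2 fold changes of the 4 globins and Alas2 were 2.35 to 2.70 with TMM and 2.37 to 2.66 with total counts alone.

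The edgeR calls depended on which libraries were included, while DESeq2 called Hba-a1, Hbb-bs and Alas2 higher with any 1 of the 6 libraries left out (highest adjusted p = 0.0344, 0.0294 and 0.0273). Without rebamipide library 3, the log2 fold changes of Hba-a1, Hbb-bs and Alas2 were 2.24, 2.30 and 2.21, and edgeR called 0 of the 7 genes higher (adjusted p = 0.0858, 0.0856 and 0.0816), while DESeq2 called 4. Calls for these 3 genes were also lost in edgeR without vehicle library 1, vehicle library 2 or rebamipide library 2 (adjusted p = 0.0655 to 0.154), at log2 fold changes of 1.99 to 2.38, and were kept without rebamipide library 1 (adjusted p = 0.0356, 0.0357 and 0.0255). edgeR called 0 genes of the whole table higher without vehicle library 2 and 1 without rebamipide library 2. Without vehicle library 3, edgeR called 5 of the 7 higher, with log2 fold changes of 2.94 to 3.79.

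The level of the genes against each other was compared in FPKM, which divides by gene length. In vehicle skin the order was Hbb-bs at 99.0 ± 66.1 FPKM, Hba-a1 at 59.9 ± 40.1, Bpgm at 18.7 ± 6.53, Hbb-bt at 13.1 ± 9.49, Alas2 at 2.55 ± 1.44, Hba-a2 at 1.53 ± 1.78 and Slc4a1 at 0.882 ± 0.672. The ranges of all neighbours in this order overlapped over the vehicle libraries, those of Hbb-bt and Alas2 only between 4.04 and 4.07 FPKM, although Hbb-bs was above Hba-a1 within each of the 6 libraries. In rebamipide skin Hbb-bs had 359 ± 113 FPKM, Hba-a1 205 ± 63.5, Hbb-bt 48.0 ± 15.8, Bpgm 11.6 ± 1.45, Alas2 8.63 ± 3.09, Hba-a2 4.61 ± 0.652 and Slc4a1 0.136 ± 0.025, with Hbb-bt above Bpgm. Here the ranges of Hbb-bs and Hba-a1, of Bpgm and Alas2 and of Alas2 and Hba-a2 overlapped, and those of the other neighbours did not. Hbb-bs was the 1368th, 518th and 256th most abundant gene by FPKM in vehicle libraries 1, 2 and 3 and the 190th, 74th and 75th in rebamipide libraries 1, 2 and 3.

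Ratios formed within a library do not depend on its depth or normalization. Most of those among the globins and that to Alas2 were steadier than those to Slc4a1 and Bpgm. The 4 globin genes took 2003, 4851 and 8970 counts in the vehicle libraries and 10092, 18703 and 20298 in the rebamipide libraries. This was 0.00512% of all counts in vehicle library 1 (exact Clopper-Pearson 95% interval 0.0049% to 0.00535%, covering counting error only) and 0.0585% in rebamipide library 3 (0.0577% to 0.0593%). Over that range the ratio of alpha to beta globin FPKM stayed between 0.503 and 0.590. Hbb-bt took 9.02% to 11.1% of the beta globin counts in all 6 libraries. The share of Hba-a2 in the alpha globin counts was less steady. It was 1.04%, 1.1% and 2.76% in vehicle libraries 1, 2 and 3. In rebamipide libraries 1, 2 and 3 it was 3.17%, 1.36% and 1.5%. There were 17.7 to 25.3 globin counts per count of Alas2, against 9.06 to 935 per count of Slc4a1 and 0.554 to 15.4 per count of Bpgm.

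**Figure D2:**
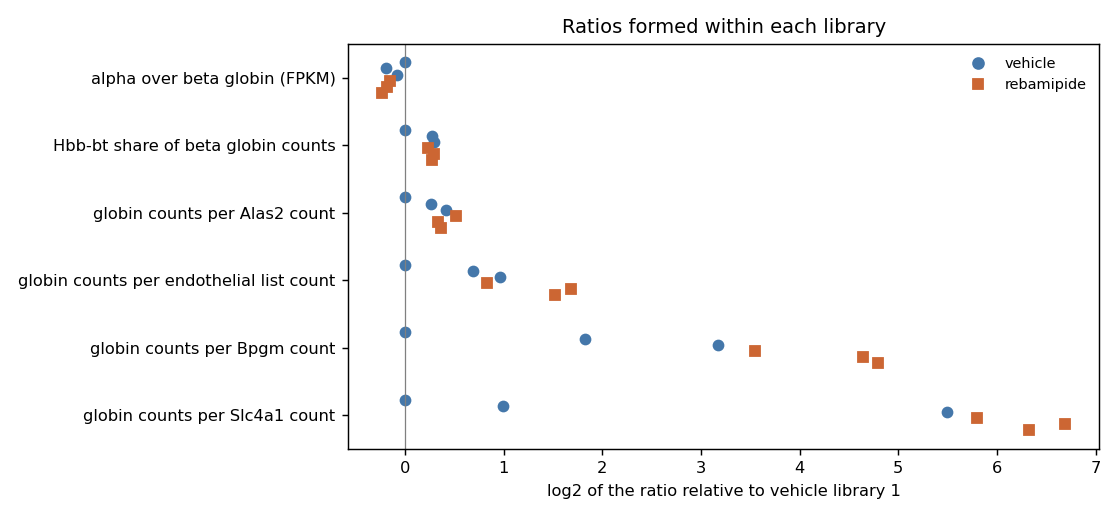
Log2 of 6 ratios formed within each library, relative to the same ratio in vehicle library 1 (circles, vehicle; squares, rebamipide; libraries 1 to 3 from top to bottom in each group). The ratio of alpha to beta globin, the Hbb-bt share and globin counts per Alas2 count stay close to 0. Globin counts per Slc4a1 count span the widest range, from 9.06 in vehicle library 1 to 935 in rebamipide library 2. The less steady Hba-a2 share of alpha globin counts is not drawn.

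Globin counts were also set against endothelial cells, which line the vessels that hold blood. The summed level of the 10 endothelial genes put the 6 libraries in the same order as the globins did, with 294, 446 and 719 normalized CPM in vehicle skin and 1360, 1661 and 1977 in rebamipide skin. Of these 10 genes, edgeR called 6 higher (60.0%, against 14.1% of all genes) and 0 lower, and the median difference was 1.79 on the log2 scale. Kdr, the main VEGF receptor, had a log2 fold change of 2.87 (adjusted p = 0.00979, edgeR), Tie1 2.22 (adjusted p = 0.0105) and Cdh5, an endothelial cadherin, 2.22 (adjusted p = 0.0139), while Pecam1 had 1.21 (adjusted p = 0.0571) and Vwf, von Willebrand factor, -0.19 (adjusted p = 0.806). With rebamipide library 3 left out edgeR called 3 of the 10 higher and DESeq2 7. There were 0.137, 0.221 and 0.267 globin counts per endothelial count in vehicle libraries 1, 2 and 3 and 0.244, 0.439 and 0.392 in rebamipide libraries 1, 2 and 3, so the groups overlapped in this ratio. Per count of Pecam1 alone there were 0.508, 0.879 and 0.997 globin counts in the vehicle libraries and 1.13, 2.66 and 2.43 in the rebamipide libraries, without overlap. The single genes of the list differed in this. Globin counts per count of Kdr, Cdh5, Tie1, Flt1 or Cldn5 overlapped between the groups, and those per count of Tek, Emcn, Egfl7 or Vwf did not. The part of vessel content in the globin result was not tested.

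Among the markers of other blood cells that could be tested, edgeR called 1 gene higher and 2 lower, and without rebamipide library 3 it called 0. limma-voom called 1 of these genes higher and 0 lower. Of the 9 platelet genes 4 could be tested, and edgeR called 0 of them, with 0 at an unadjusted p under 0.05 and 0 by DESeq2 or limma-voom. Their summed level was 21.3, 35.3 and 49.9 normalized CPM in vehicle libraries 1, 2 and 3 and 41.7, 19.2 and 14.5 in rebamipide libraries 1, 2 and 3. Among vehicle libraries the sum was higher where globin was higher, and it was lowest of all in rebamipide libraries 2 and 3, where globin was highest. Pf4, platelet factor 4, had a log2 fold change of -0.60 (adjusted p = 0.481, edgeR), Itga2b -0.72 (adjusted p = 0.334) and Gp1ba 1.07 (adjusted p = 0.176), and Gp1bb was at 0 counts throughout. Of 12 neutrophil genes 6 were tested and 1 fell (16.7%, against 6.51% of all genes), S100a8, a calcium-binding protein of neutrophils that stressed epidermis also makes (log2 fold change -1.52, adjusted p = 0.0427, edgeR). The receptors Cxcr2 and Csf3r had log2 fold changes of -2.48 (adjusted p = 0.0918, edgeR) and -0.40 (adjusted p = 0.697). The neutrophil sum was 7.13 to 23.0 normalized CPM in vehicle skin and 6.86 to 11.1 in rebamipide skin. Among granule genes Ltf, Ngp and Mpo had at most 6 counts in any library, Elane had 3, 10 and 6 counts in vehicle skin and 4, 18 and 25 in rebamipide skin, Mmp8 11, 8 and 34 against 2, 2 and 4, and Camp 32, 26 and 20 against 22, 0 and 2 (adjusted p = 0.563, edgeR). Of the lymphocyte genes 7 were tested and 1 rose (14.3%, near the 14.1% of all genes), Cd79a of the B cell receptor, from 4, 8 and 10 to 31, 27 and 51 counts (log2 fold change 3.11, adjusted p = 0.0187, edgeR), while Cd3g and Cd2 of T cells had log2 fold changes of -1.75 (adjusted p = 0.103) and -0.40 (adjusted p = 0.7). Of 9 monocyte and macrophage genes 1 fell, the chemokine receptor Ccr2 (log2 fold change -1.97, adjusted p = 0.0489, edgeR), which is 11.1% against 6.51% of all genes, and Lyz2, Csf1r and Mrc1 did not pass (adjusted p = 0.534, 0.423 and 0.0972). DESeq2 called 2 neutrophil genes, 1 lymphocyte gene and 2 monocyte and macrophage genes lower, and limma-voom 0.

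**Figure D3:**
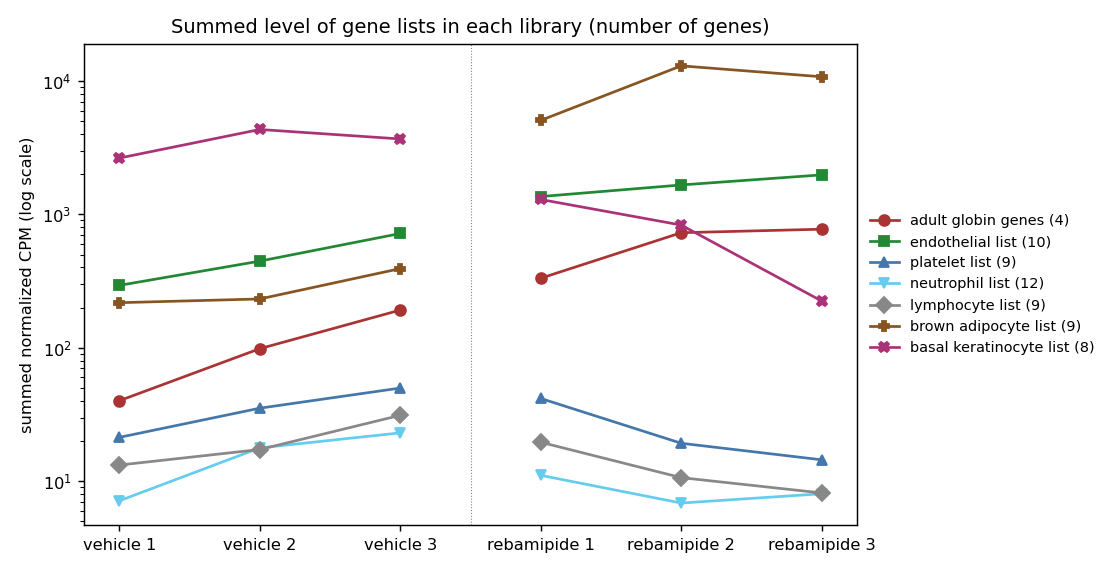
Summed normalized CPM (log axis) of the 4 adult globin genes and of 6 cell type lists in each library, with the number of genes of each list in brackets. Globin and endothelial sums are higher in all rebamipide libraries than in all vehicle libraries, platelet, neutrophil and lymphocyte sums overlap, and the basal keratinocyte sum is 224 in rebamipide library 3.

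Many adipocyte genes were also higher in rebamipide skin. The 9 brown adipocyte genes summed to 218 to 392 normalized CPM in vehicle skin and 5065 to 12980 in rebamipide skin, and edgeR called 7 of them higher (77.8%, against 14.1% of all genes), among them Otop1 and Cidea (log2 fold changes 9.98 and 6.23). Elovl3, a fatty acid elongase also made in skin glands, was lower in every rebamipide library with 8788, 6332 and 11150 counts against 2500, 2133 and 873, did not pass in edgeR (log2 fold change -1.45, adjusted p = 0.0575), and was the 1 gene of the list that DESeq2 called lower. Ucp1, the uncoupling protein of brown fat, had 0 counts in all vehicle libraries and 81048, 220449 and 150572 in the rebamipide libraries. The 12 general adipocyte genes summed to 2203 to 5971 and 13830 to 26420 normalized CPM, with 8 called higher (66.7%), among them Fabp4, Lipe and Pnpla2 by 3.05 to 3.89 on the log2 scale, while Lpl did not pass (log2 fold change 2.01, adjusted p = 0.0598, edgeR). The adipokine genes Lep, Retn and Cfd had log2 fold changes of -0.53, -0.23 and 0.34 (adjusted p = 0.486, 0.753 and 0.697, edgeR), and their groups overlapped. In edgeR 6 brown and 6 general adipocyte genes were called higher without rebamipide library 3. Basal keratinocyte genes summed to 2642 to 4328 normalized CPM in vehicle skin and 224 to 1293 in rebamipide skin, with 0 of 8 called in edgeR, 3 lower at an unadjusted p under 0.05, 3 lower by DESeq2 and 1 by limma-voom, and Itgb4 and Dst had log2 fold changes of -1.56 (adjusted p = 0.0581, edgeR) and -1.05 (adjusted p = 0.0637). Of the other lists, edgeR called 1 of 10 pericyte and smooth muscle genes higher (Kcnj8), a share under the 14.1% of all genes, 4 of 6 slow muscle genes higher (66.7% against the same 14.1%, 5 by DESeq2 and 0 by limma-voom), and 0 of 7 fibroblast genes and 0 of 9 fast muscle genes in either direction, with 2 fibroblast genes and 0 fast muscle genes lower at an unadjusted p under 0.05 and by DESeq2 and 0 of both by limma-voom. Of the pericyte and smooth muscle genes Cspg4, Rgs5 and Acta2 had log2 fold changes of 0.88, 1.96 and 0.27 (adjusted p = 0.0751, 0.0771 and 0.456, edgeR). At an unadjusted p under 0.05 edgeR had 5 of these 10 genes higher, against 20.9% of all genes. DESeq2 called 2 higher and limma-voom 1. Their summed level was 523 to 735.5 normalized CPM in vehicle skin and 895 to 1362 in rebamipide skin. The slow muscle genes Myh7, Myl2 and Myl3 rose by 8.72, 6.78 and 6.29 on the log2 scale (adjusted p = 0.0181, 0.0307 and 0.0209, edgeR), with 2120, 947 and 37 counts of Myh7 in the rebamipide libraries against 2, 6 and 4 in the vehicle libraries. The fast muscle genes Myh1, Myh4 and Acta1 had -0.78, -0.60 and -0.27 on that scale (adjusted p = 0.731, 0.769 and 0.899, edgeR). The fibroblast genes Lum, Dcn, Col1a2 and Col3a1 had -1.56, -1.35, -1.23 and -0.82 (adjusted p = 0.103, 0.11, 0.342 and 0.441, edgeR). Leaving out rebamipide library 3, edgeR called 1 basal keratinocyte gene lower, 4 slow muscle genes higher and 0 pericyte and smooth muscle, fibroblast and fast muscle genes, against 6 basal keratinocyte genes lower by DESeq2. The part of these differences in tissue makeup in the globin result was not tested.

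The wider red cell genes were taken from 6 lists holding 102 distinct genes, of which 99 were in the table and 77 were tested. Of these 77, 21 were called higher (27.3%, against 14.1% of all genes) and 0 lower (against 6.51%) in edgeR, with a median log2 fold change of 0.35 against -0.18 for all genes. Without rebamipide library 3 edgeR called only 3 heme synthesis genes and 2 red cell membrane genes higher, and 0 in each other list. DESeq2 then called 1 to 8 genes per list higher. Of the genes that mark reticulocytes, 7 of the 9 in the table were tested and 4 were called higher (57.1%, against 14.1% of all genes), namely Car1 and Hba-a1, Hbb-bs and Alas2, already counted above. Leaving out rebamipide library 3, edgeR called 0 of the reticulocyte genes higher and DESeq2 5. The lists hold the members themselves, and many of their genes are also active in other cells of skin.

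Of the globin family, 14 genes were in the table and 7 were tested, and Hba-a1 and Hbb-bs were the 2 called higher (28.6%, against 14.1% of all genes). Without rebamipide library 3 edgeR called 0 of the globin family higher and DESeq2 3. The embryonic globins Hba-x, Hbb-bh1, Hbb-bh2 and Hbb-y had 0 counts in all 6 libraries, where 0 counts allow up to 3 per library or 0.0752 to 0.0917 CPM. The theta-like Hbq1a and Hbq1b had 0 to 6 counts. Myoglobin (Mb), the oxygen store of muscle, had 2440, 19630 and 11378 counts in vehicle skin and 14480, 4562 and 287 in rebamipide skin, with a log2 fold change of -0.05 (adjusted p = 0.976, edgeR), and was lowest in rebamipide library 3, as was the sum of the fast muscle genes, which was 5264 to 26110 and 269 to 33440 normalized CPM. Cytoglobin (Cygb), found in fibroblasts, had a log2 fold change of -0.03 (adjusted p = 0.958, edgeR), and Adgb, a large globin of ciliated cells and testis, had -2.10 (adjusted p = 0.168).

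Heme synthesis was the list with the most calls, with 9 of 15 genes higher (60.0%, against 14.1% of all genes), 0 lower and a median log2 fold change of 1.26. At an unadjusted p under 0.05 edgeR had 3 genes lower, and DESeq2 called 2 lower. Besides Alas2, the housekeeping form Alas1, which starts heme synthesis in other tissues, rose from 65.2 ± 16.7 to 334 ± 81.0 normalized CPM, or by 2.36 ± 0.30 on the log2 scale (adjusted p = 0.00993, edgeR). Per length, the level of Alas1 was 13.0 ± 3.00 FPKM in vehicle skin, against 2.55 ± 1.44 FPKM for Alas2. Tmem14c, which carries a porphyrin precursor into mitochondria, had a log2 fold change of 2.34 (adjusted p = 0.00993), Urod 1.42 (adjusted p = 0.0151) and Fech, which inserts iron into the ring, 1.28 (adjusted p = 0.0167). Uros (adjusted p = 0.0252, edgeR), Alad and Abcb10 also rose, by 1.06 to 1.34 on the log2 scale. Slc25a37, mitoferrin 1, which supplies mitochondria of erythroblasts with iron, had 6886, 4041 and 996 counts in vehicle skin and 531, 569 and 616 in rebamipide skin, with a log2 fold change of -1.93 (adjusted p = 0.0747, edgeR). Cpox was lower in every rebamipide library and did not pass (log2 fold change -0.89, adjusted p = 0.0563). Without rebamipide library 3 edgeR called 3 of the heme synthesis genes higher and DESeq2 8.

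**Figure D4:**
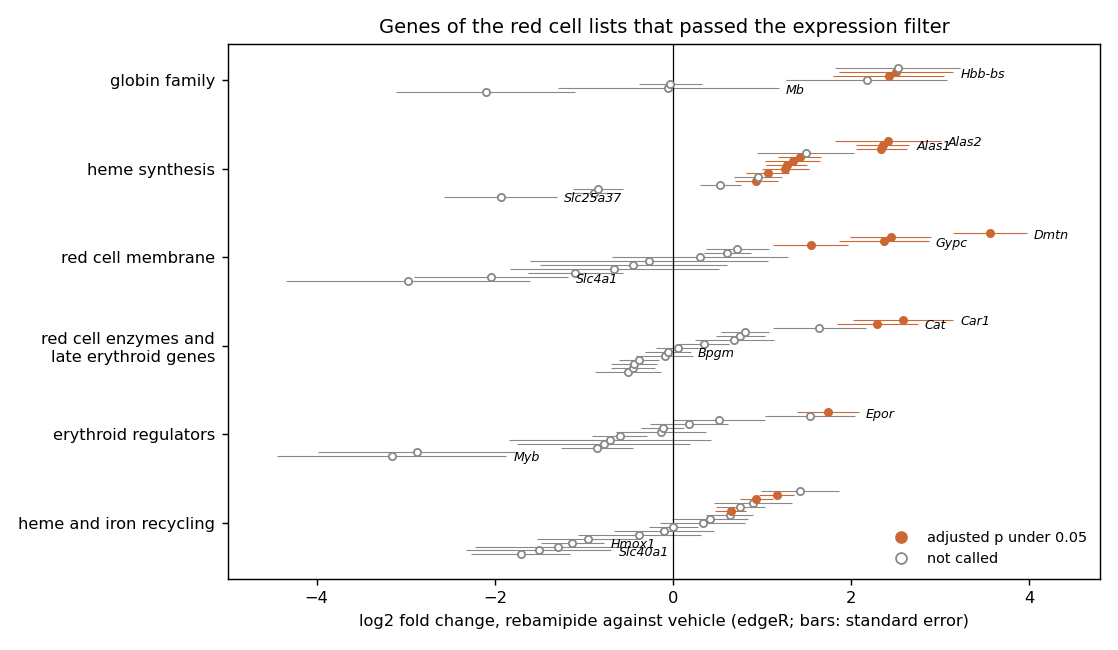
Log2 fold change (rebamipide against vehicle, edgeR, with its standard error) of each tested gene in the 6 red cell lists; filled points have an adjusted p under 0.05. The 21 calls are all on the higher side, 9 of them in heme synthesis, and Slc4a1, Slc25a37 and Slc40a1 lie among the lowest values of their lists without a call.

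Among 20 red cell membrane genes 13 were tested, 4 rose (30.8%, against 14.1% of all genes) and 0 fell, with a median log2 fold change of 0.30. At an unadjusted p under 0.05 edgeR had 0 lower, and DESeq2 and limma-voom called 0 lower. Dmtn, an actin-bundling protein of the red cell skeleton that other tissues also make, had the largest rise of the 13 (236, 290 and 440 counts against 1445, 2317 and 2566, or 3.56 ± 0.42 on the log2 scale, adjusted p = 0.00939, edgeR). Cd59a, a complement inhibitor, rose by 2.44 (adjusted p = 0.0194, edgeR), Gypc, glycophorin C, by 2.37 (adjusted p = 0.0258) and the water channel Aqp1, also made by endothelium, by 1.55 on the log2 scale (adjusted p = 0.0488). Some genes that define the red cell membrane were near 0. Epb42, protein 4.2, had 0, 0 and 0 counts in vehicle skin and 4, 14 and 12 in rebamipide skin. It did not pass the expression filter, and with no filter its adjusted p was 0.0408 in edgeR and 0.000893 in DESeq2. Rhag and Icam4 were at 0 counts throughout. Sptb had 858, 3959 and 3961 counts in vehicle skin and 3091, 688 and 141 in rebamipide skin (adjusted p = 0.774, edgeR), and Ank1 and Tmod1 were likewise lowest in rebamipide library 3, as was the summed level of the fast muscle genes. Epb41, second only to Aqp1 in level, did not pass (log2 fold change 0.61, adjusted p = 0.139). Without rebamipide library 3 edgeR called 2 genes of the list higher and DESeq2 5.

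Of the enzymes and late erythroid genes 14 were tested, 2 rose and 0 fell, and the median difference was 0.20 on the log2 scale. Those called higher made up 14.3%, near the 14.1% of all genes. Car1, the abundant carbonic anhydrase of red cells, had 10, 22 and 17 counts in vehicle skin and 32, 65 and 66 in rebamipide skin (2.58 ± 0.56 on the log2 scale, adjusted p = 0.028, edgeR). Cat, catalase, rose from 244 ± 98.8 to 1199 ± 403 normalized CPM (adjusted p = 0.0216, edgeR), which is 2.30 on the log2 scale, and is made in liver, fat and many other tissues. Car2 had a log2 fold change of 1.64 (adjusted p = 0.0694), Nprl3, whose introns hold enhancers of the alpha globin genes, 0.81 (adjusted p = 0.0771), and Blvrb 0.76 (adjusted p = 0.0934). Prdx2 and Bnip3l, among the genes of highest level in the list, did not pass (log2 fold changes 0.35 and -0.45). Hemgn, a nuclear protein of erythroblasts, had 8, 16 and 16 counts against 4, 2 and 0, and Pklr and Trim58 were at 0 counts throughout. At an unadjusted p under 0.05 edgeR had 0 lower in this list, as did DESeq2 and limma-voom at the adjusted threshold. Without rebamipide library 3 edgeR called 0 of these genes higher and DESeq2 2.

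Among regulators of the erythroid programme edgeR called Epor higher and no other gene. Of 12 tested 1 rose (8.33%, against 14.1% of all genes) and 0 fell, with a median log2 fold change of -0.37. At an unadjusted p under 0.05 edgeR had 2 lower, DESeq2 called 2 lower and limma-voom 0. Epor, the erythropoietin receptor, had 41, 46 and 39 counts in vehicle skin and 94, 61 and 84 in rebamipide skin (1.74 ± 0.34 on the log2 scale, adjusted p = 0.0218, edgeR). Of the nucleated erythroblast genes as a list, 4 were tested and Epor was the 1 called (25.0%, against 14.1% of all genes), while Tfrc, the transferrin receptor, and Tal1 had log2 fold changes of -0.50 and 0.52 (adjusted p = 0.34 and 0.472, edgeR). Gata1, the factor that drives globin and Alas2 transcription in erythroblasts, had 4, 26 and 27 counts in vehicle skin and 18, 1 and 2 in rebamipide skin. It was thus at 1 and 2 counts in the libraries with 18703 and 20298 globin counts. Klf1, its partner at the beta globin promoter, had 0 to 6 counts in any library. Gata2, found in stem cells, mast cells and endothelium, had a log2 fold change of 1.54 (adjusted p = 0.0753, edgeR), Bcl11a -2.88 (adjusted p = 0.109) and Myb -3.16 (adjusted p = 0.123). Ldb1, Kit and Lmo2, which had the most normalized CPM here, had log2 fold changes of -0.60, -0.85 and 0.18 without passing. Without rebamipide library 3 edgeR called 0 of the regulators and 0 of the nucleated erythroblast genes higher, against 1 in each list by DESeq2.

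In the breakdown of heme and recycling of iron, 17 genes were tested, 3 rose and 0 fell, and the median difference was 0.33 on the log2 scale. Those called higher made up 17.6%, near the 14.1% of all genes. Blvra, which turns biliverdin into bilirubin, had a log2 fold change of 1.17 (adjusted p = 0.0145, edgeR), Hmox2, the constitutive heme oxygenase, 0.94 (adjusted p = 0.0223) and the heme transporter Slc48a1 0.65 (adjusted p = 0.0462). Hmox1, the heme oxygenase that heme induces, had 2317, 2950 and 2108 counts in vehicle skin and 1057, 500 and 391 in rebamipide skin and was lower in every rebamipide library without passing (log2 fold change -1.13, adjusted p = 0.0662, edgeR). Fth1, ferritin heavy chain, had 1.43 (adjusted p = 0.0636), Hp, haptoglobin, which binds free hemoglobin, 0.90 (adjusted p = 0.179), and Trf -0.38 (adjusted p = 0.704). Slc40a1, ferroportin, the iron exporter, had 11616, 7488 and 895 counts in vehicle skin and 940, 1371 and 1512 in rebamipide skin, high in vehicle libraries 1 and 2 as was Slc4a1 (adjusted p = 0.214, edgeR). At an unadjusted p under 0.05 edgeR had 2 lower in this list, DESeq2 called 2 lower and limma-voom 1. Without rebamipide library 3 edgeR called 0 of the list higher and DESeq2 3.

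The genes nearest in profile were found among all 14875 tested genes by the root mean square difference of log2 normalized CPM over the 6 libraries, each gene centred on its own mean. This is a description over 6 libraries that share 1 comparison, and many genes that rose have a similar profile. Outside the red cell genes, those nearest to the mean of the 4 globins were Rxrg, a retinoid receptor (difference 0.153), Ces1f, a carboxylesterase (0.157), Colca2 (0.185), Mrap, a partner of the ACTH receptor in fat and adrenal (0.210), and Pon3, a paraoxonase (0.213). Rxrg had 153, 350 and 666 counts in vehicle skin and 1084, 1387 and 1594 in rebamipide skin. Of the red cell genes beyond the globins, Alas2 ranked 25th in likeness to the globin mean, Cd59a 31st and Gypc 45th, while Slc4a1 ranked 13028th and Bpgm 7550th. Hba-a2 ranked 101st with a difference of 0.412.

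Nearest to Alas2, members aside, were Fetub (0.110), the fatty acid transporter Cd36 (0.136) and Dpyd (0.149). Cd36, which fat, endothelium and macrophages make, had 13951, 24417 and 36966 counts in vehicle skin and 35351, 84823 and 92934 in rebamipide skin (log2 fold change 2.36, adjusted p = 0.0403, edgeR). Nearest to Slc4a1 were Stox1 (0.293), Guca1b (0.388) and Slc40a1 (0.392), and Slc25a37 ranked 6th with the gene itself counted. Stox1 had 314, 509 and 46 counts in vehicle skin and 30, 22 and 38 in rebamipide skin, so vehicle library 3 lay with the rebamipide libraries for this gene as for Slc4a1. Nearest to Bpgm were Cops7b (0.047), Cdc23 (0.051) and Med17 (0.052), which encode parts of the COP9 signalosome, the anaphase-promoting complex and Mediator, with log2 fold changes of -0.09, -0.09 and -0.12.

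**Figure D5:**
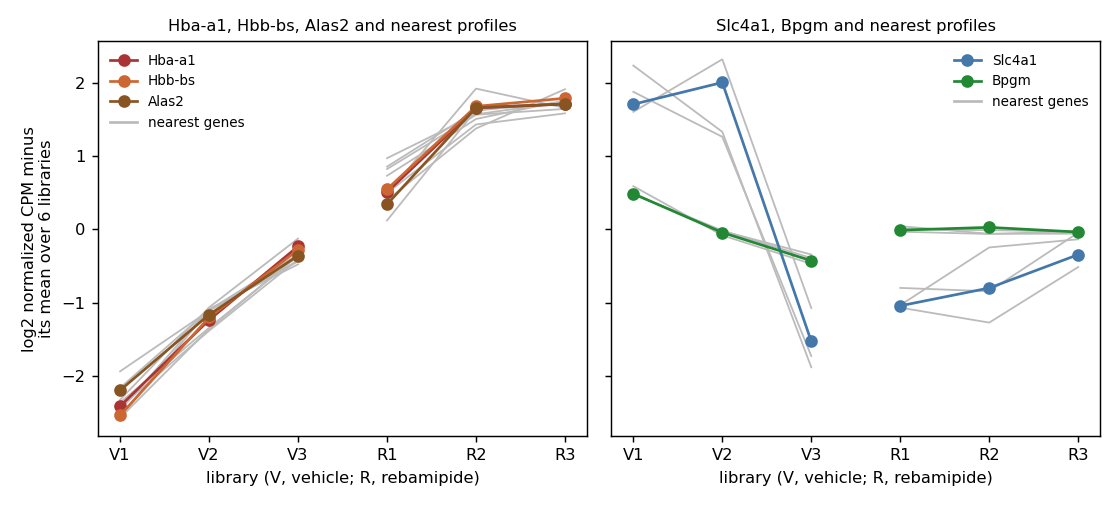
Log2 normalized CPM minus its mean over the 6 libraries for Hba-a1, Hbb-bs and Alas2 (left) and Slc4a1 and Bpgm (right), with the nearest genes in grey. The genes on the left are lowest in vehicle library 1 and higher in all rebamipide libraries than in all vehicle libraries, and Slc4a1 is high in vehicle libraries 1 and 2 only.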

How the data were processed

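Whole dorsal skin from 3 vehicle and 3 rebamipide mice was profiled by poly-A RNA-seq, 1 library per mouse. Per the labels, the authors used fastp 0.22.0, HISAT2 2.1.0 and HTSeq 0.9.1 with build GRCm39, and deposited read counts per gene together with FPKM. How strand and reads that match several places were handled is not given in the sources used here. The deposited FPKM were recomputed from the counts, gene lengths and totals with a largest relative difference of 5.1e-14. All 12 value columns were matched to samples by name.

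Counts were filtered with filterByExpr, scaled with TMM factors and tested in edgeR 4.0.16 (R 4.3.3) with the quasi-likelihood test on the 6 libraries, without covariates, and p-values were adjusted by Benjamini-Hochberg over the 14875 genes tested. Standard errors are the log2 fold change divided by the square root of F. Means and SDs are of normalized CPM or FPKM over the 3 libraries of a group. Shares of counts have exact Clopper-Pearson intervals (scipy 1.17.1), which cover counting error only. Alternatives used DESeq2 1.42.0, limma 3.58.1 with voom or with log2(FPKM + 1) and log2(FPKM + 0.1), other scalings and filters, the replicate number as a block, and each library left out in turn. Summing the globin copies was added after seeing the data. In counts simulated for this comparison with 200 genes changed 4-fold, edgeR recovered 97.5% with 9 false calls among 14776 genes, DESeq2 97% with 27 among 14875 genes and limma-voom 96% with 9 among 14776 genes. Every simulated gene had the same relative spread, and only well-counted genes were changed. The simulation held no shift in tissue makeup and no unusual library. These shares therefore do not measure how many changes of that size the tests find in the real libraries. Replicates of a group differed by more than counting error in every pair (chi-square per degree of freedom 79.1 to 713.6).

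Vehicle and rebamipide samples share the numbers 1 to 3, but nothing in the labels ties the numbers to litters or days, and deviations from the group means correlated at -0.016, -0.038 and 0.003 between samples of the same number. The samples were therefore not treated as paired.

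The 7 genes and all lists were chosen with earlier results of these data known. Genes named beyond the 7 were, for each red cell list, up to 5 with the smallest edgeR p and the 3 with the highest mean normalized CPM, for each other list up to 2 and 2 of these, and the genes nearest in profile, 5 to the globins and 3 each to Alas2, Slc4a1 and Bpgm. Other genes of the lists, among them Gata1, Klf1, the embryonic globins, Epb42, Elovl3, Vwf, Lep, Retn, Cfd and the neutrophil granule genes, were named after their values were seen. Some genes of the lists are not reported here by name. Promoters were read from RefSeq's table for GRCm38.p6 and transcripts from GENCODE M21, and their coordinates were not mixed with the GRCm39 coordinates of the deposited table.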

Additional observations from a re-analysis of the deposited data

How the results depend on the processing

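The direction of the 4 globins, Alas2 and Slc4a1 was the same under every alternative run, and that of Bpgm turned in 4 of the fits that left out a library. With total counts alone the calls of Hba-a1 (log2 fold change 1.78, adjusted p = 0.0546, edgeR) and Hbb-bs (1.86, adjusted p = 0.0531) were lost, as they were with totals that leave out the mitochondrial genome (2.016 and 2.097, adjusted p = 0.0522 and 0.0512), so 1 of the 7 genes was called higher under each, against 3 with TMM. Hba-a2 passed by DESeq2 (2.16, adjusted p = 0.0469) and limma-voom (2.92, adjusted p = 0.0466). Hbb-bt passed by DESeq2 (2.52, adjusted p = 0.00277), limma-voom (2.76, adjusted p = 0.0364), with at least 10 counts in every sample (2.38, adjusted p = 0.0414), with limma on log2(FPKM + 1) (2.01, adjusted p = 0.0405) and log2(FPKM + 0.1) (2.13, adjusted p = 0.0444) and with the replicate block (2.76, adjusted p = 0.0246), and DESeq2 and limma-voom called 5 of the 7. Over all genes, 2093 higher and 968 lower calls (68.4% higher) became 1257 and 3744 with total counts alone (25.1%), 2331 lower without the mitochondrial genome (38.3%), 2552 lower by DESeq2 (51.0%), 1523 lower with at least 10 counts (57.8%), 4809 lower with log2(FPKM + 1) (22.6%), and 1391 higher and 4777 lower with log2(FPKM + 0.1). In the globin family, 2 higher became 4 by DESeq2 and limma-voom and 0 with total counts and without the mitochondrial genome, and log2(FPKM + 0.1) called 1 lower. In heme synthesis, 9 higher became 5 with total counts, both FPKM scales and the replicate block, and 0 lower became 2 by DESeq2 and log2(FPKM + 1) and 3 with total counts, without the mitochondrial genome, with at least 10 counts and with log2(FPKM + 0.1). Among erythroid regulators, 1 higher became 2 by DESeq2 and limma-voom and 0 with total counts and with the replicate block, and 0 lower became 1 with total counts, 2 by DESeq2, log2(FPKM + 1) and the replicate block and 3 with log2(FPKM + 0.1). Of membrane genes log2(FPKM + 0.1) called 1 lower. Among red cell enzymes, 2 higher became 4 by DESeq2, and 0 lower became 4 with total counts and both FPKM scales and 1 without the mitochondrial genome. In heme and iron recycling, 3 higher became 0 with total counts and 1 without the mitochondrial genome and with both FPKM scales, and 0 lower became 2 by DESeq2, total counts, without the mitochondrial genome and both FPKM scales and 1 by limma-voom and with at least 10 counts. The cause of these moves was not tested. Leaving out each library in turn in edgeR, DESeq2 and limma-voom gave log2 fold changes of 1.99 to 3.13 for Hba-a1, 1.65 to 3.89 for Hba-a2, 2.06 to 3.22 for Hbb-bs, 2.04 to 3.35 for Hbb-bt, 1.97 to 2.97 for Alas2, -2.56 to -0.88 for Slc4a1 and -0.24 to 0.21 for Bpgm. It gave 0 to 5 of the 7 genes higher and 0 to 1 lower, 0 to 3628 genes higher and 0 to 4251 lower, and per list 0 to 4 higher and 0 to 1 lower (globin family), 0 to 11 and 0 to 3 (heme synthesis), 0 to 3 and 0 to 3 (regulators), 0 to 8 and 0 to 1 (membrane), 0 to 5 and 0 to 0 (enzymes), and 0 to 7 and 0 to 3 (recycling). Without vehicle library 2 edgeR called 0 genes in either direction, with 4116 at an unadjusted p under 0.05, and without rebamipide library 2 it called 1, with 4062. Since same-numbered samples share only a number, a call lost under the block does not describe a weaker effect. With 3 mice per group a single gene cannot pass the exact permutation test, and among the fits on all 6 libraries genes under the expression filter were tested only with no filter and by DESeq2.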
